A study of Mus musculus with 2 samples.

Results

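The genes described here are the fibroblast growth factors (FGFs) with their receptors and binding proteins, the Sprouty and Spred inhibitors of receptor signaling, and the heparan sulfate proteoglycans of the syndecan and glypican families. They were chosen by gene symbol alone (Fgf, Fgfr, Fgfrl1, Fgfbp, Spry, Spred, Sdc, Gpc and Frs with their numbers, and Nudt6), and 44 of the 16302 symbols listed in at least one of the tables belong to the set. Cultured astrocytes from the dentate gyrus (DG) of adult C57BL/6 mice were profiled by RNA sequencing (RNA-seq), with a single library each for wild type (WT) and β-arr1 KO mice. The KO mice lack β-arrestin 1, a scaffold protein encoded by Arrb1, in all cells and not in astrocytes alone. Both cultures were grown in astrocyte medium with serum, and neither received a further treatment. Values are FPKM (fragments per kilobase of transcript, scaled to the depth of each library), so levels of different genes can be set side by side.

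FGFs are secreted proteins that bind receptor tyrosine kinases on the cell surface, and heparan sulfate chains carried by syndecans, glypicans and matrix proteoglycans hold ligand and receptor together. The activated receptor phosphorylates the docking protein Frs2, and the signal runs through Ras and Raf to the kinase ERK, while Sprouty and Spred proteins are induced by the pathway and restrain it. In the adult DG, FGF signaling is known for its effect on neural precursors, and astrocytes are a source of FGF2 in the niche.

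With 1 library per genotype replicate error is unknown, and genotype was not tested. The 95% interval printed beside a ratio is a Clopper-Pearson interval on fragments estimated from the FPKM values, and it covers counting error only. The estimated depth was 9.38 M fragments in WT and 9.52 M in KO. A gene was past the limits when the ratio of KO over WT was above 3/2 or below 2/3, counted over genes that reached 1 FPKM in either library. Arrb1 was listed at 7.62 FPKM in WT against 2.72 in KO (ratio 0.358, interval 0.300 to 0.425), so the labeled genotypes differ in the targeted gene, although its transcript remained in the KO table. The astrocyte marker Gfap was similar in both libraries (189 and 192 FPKM). All 7 microglia markers were above 1 FPKM in both libraries and summed to 419 FPKM in WT and 334 FPKM in KO, with Csf1r at 146 and 135 FPKM. Cd68 alone was below 2/3 (185 and 119 FPKM), and Cx3cr1 alone was higher in KO (24.8 and 25.9 FPKM). Of the 6 fibroblast, meningeal and mural markers at 1 FPKM or more, 4 were below 2/3, among them Dcn (6.11 and 0.831 FPKM) and Col1a1 (420 and 237 FPKM), and the list summed to 5919 FPKM in WT and 5342 FPKM in KO. Most of that sum was Acta2 (2478 and 2469 FPKM) and Tagln (2915 and 2597 FPKM), both within the limits and far above Gfap in level. Of the 6 oligodendrocyte lineage markers, 3 were above 3/2, and this list summed to 85.4 and 126 FPKM. Of the neuron markers, Rbfox3, Snap25, Syt1 and Neurod1 were at or below 0.261 FPKM in both, while Tubb3 (44.7 and 59.8 FPKM) and Prox1 (1.05 and 2.17 FPKM, above 3/2) were higher in KO. Of the 10 astrocyte markers, 4 were above 3/2 (sums 396 and 420 FPKM). Of the 5 endothelial markers, Pecam1 was above 3/2 (3.03 and 5.22 FPKM) and Cdh5 below 2/3 (31.8 and 16.1 FPKM), with sums of 41.8 and 30.1 FPKM. Of the 5 neural precursor markers, Sox2 was above 3/2 (24.4 and 38.8 FPKM), and the list summed to 178 and 223 FPKM. The part of these shifts in the results on the FGF system was not tested, and in such bulk libraries fewer cells of a type and less RNA per cell cannot be told apart. The Y-linked genes Ddx3y, Eif2s3y, Kdm5d and Uty were listed in KO only, and this difference between the cultures cannot be told apart from genotype. The X-linked gene Xist, in contrast, had a row for both cultures (39.4 against 29.7 FPKM, KO over WT ratio 0.753). The sex of the cells in each culture, and its part in the values of X-linked genes, was not tested.

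The FGF system of these cultures was made up of many proteoglycan transcripts, an intermediate level of receptors and inhibitors, and few ligand transcripts. Of the 44 genes, 40 were listed in both tables and 34 reached 1 FPKM in either library. Of these 34, 8 had a ratio above 3/2 (Fgf2, Fgf11, Fgf12, Fgf22, Fgfbp1, Spry2, Spred3 and Gpc5), against 9.56% of all 12646 genes at this level. Fgf12, Fgf22, Fgfbp1 and Gpc5 reached 1 FPKM in KO only, the library where they were higher. With 1 FPKM required in both libraries, 4 of 28 were above 3/2, and the 9.56% does not hold for that count. Counted as below 2/3 were 3 of the 34, namely Fgf18 and Gpc3 by their ratio and Nudt6 because it had no KO row, against 8.28% of all genes counted in the same way. As shares, 23.5% of the 34 genes were above 3/2 and 8.82% below 2/3. These counts hold both Fgf2 and Nudt6, whose rows overlap and whose values cannot be separated. Without both, 7 of 32 genes (21.9%) were above 3/2 and 2 (6.25%) below 2/3. Past-limit ratios went with low levels both in the whole table and in these genes. In the lowest quintile of genes by mean FPKM, 42.3% of all genes and 7 of the 9 genes of the FGF system were past the limits, whereas in the highest quintile 9.21% of all genes and 0 of 7 were.

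Small differences pointed to KO more often than to WT. Of the 33 genes at 1 FPKM or more that were listed in both tables, 23 (69.7%) were higher in KO, against 53.1% of all genes, and the median log2 ratio was 0.24 against 0.02 over all genes. Without Fgf2 the median over 32 genes was 0.22. A counting interval could be given for 31 genes, and it left out 1 in 19 of them, with 16 ratios above 1 and 3 below. With the shortest annotated transcript of each gene in place of the longest, it left out 1 in 10 of 30, so statements on counting error below depend on the longest transcript. Over all 10447 genes with an interval, 40.2% left out 1, so that a difference beyond counting error alone was common between these libraries.

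**Figure D1:**
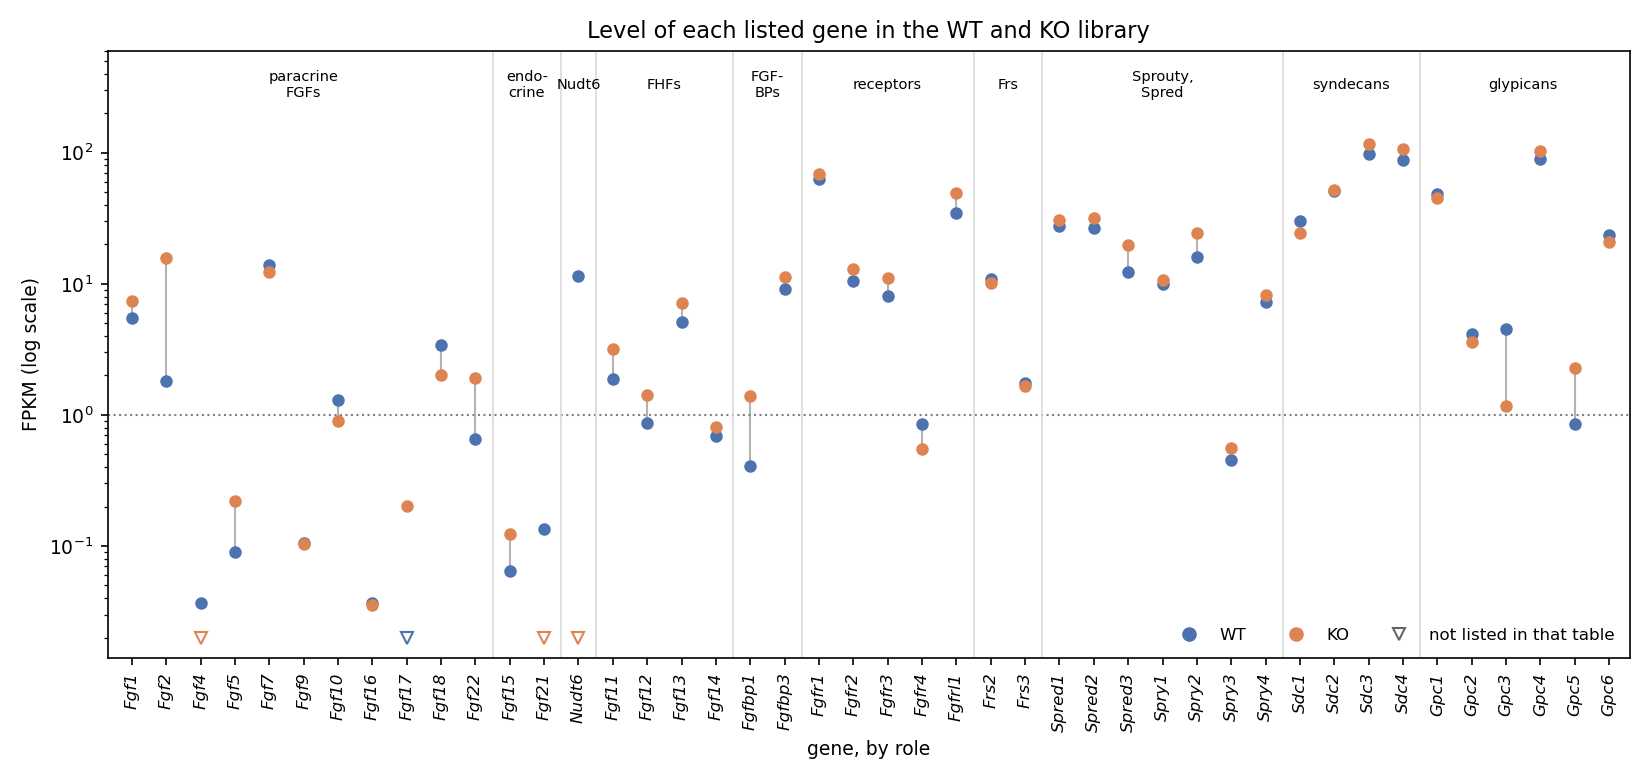
Level of each of the 44 listed genes in FPKM on a log scale, grouped by role, with 1 point for the WT library and 1 for the KO library, a line joining them, and triangles for genes with no row in that table. The dotted line marks 1 FPKM. Syndecans and glypicans reach the highest levels, most ligands lie below the receptors, and the widest gaps are those of Fgf2, Gpc3, Fgfbp1, Fgf22 and Gpc5.

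The promoters of Spry2, Spred3, Gpc3 and Gpc5 are shown because these genes include the inhibitors above 3/2 and the glypicans past either limit. Each sequence is the 250 bases before the transcript start in the RefSeq promoter table (GRCm38.p6), printed 5′ to 3′ on the strand of the gene, and each was found once in the mm9 (NCBIM37) genome. The coordinates there are chr14:106296037-106296286 on the minus strand for Spry2, chr7:29953667-29953916 on the minus strand for Spred3, chrX:49967152-49967401 on the minus strand for Gpc3 and chr14:115491187-115491436 on the plus strand for Gpc5. Capitals mark matches on either strand to the GC box GGGCGG, read by Sp1 family factors, to the TATA box TATAAA and to the ETS core CCGGAA, read by ETS factors downstream of ERK.
Spry2: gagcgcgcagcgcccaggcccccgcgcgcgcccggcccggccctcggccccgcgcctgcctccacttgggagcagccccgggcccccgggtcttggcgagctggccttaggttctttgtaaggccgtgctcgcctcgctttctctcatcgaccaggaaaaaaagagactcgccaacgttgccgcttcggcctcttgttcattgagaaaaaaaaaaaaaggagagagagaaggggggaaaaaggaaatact
Spred3: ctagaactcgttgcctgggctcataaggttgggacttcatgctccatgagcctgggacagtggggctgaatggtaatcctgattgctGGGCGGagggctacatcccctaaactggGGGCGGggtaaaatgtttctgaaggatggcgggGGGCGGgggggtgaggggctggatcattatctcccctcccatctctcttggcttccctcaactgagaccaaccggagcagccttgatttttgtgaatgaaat
Gpc3: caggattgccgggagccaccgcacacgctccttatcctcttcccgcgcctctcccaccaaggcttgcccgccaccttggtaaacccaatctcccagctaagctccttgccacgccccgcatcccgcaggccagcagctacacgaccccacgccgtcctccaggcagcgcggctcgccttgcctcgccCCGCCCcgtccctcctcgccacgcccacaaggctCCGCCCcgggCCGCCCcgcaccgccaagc
Gpc5: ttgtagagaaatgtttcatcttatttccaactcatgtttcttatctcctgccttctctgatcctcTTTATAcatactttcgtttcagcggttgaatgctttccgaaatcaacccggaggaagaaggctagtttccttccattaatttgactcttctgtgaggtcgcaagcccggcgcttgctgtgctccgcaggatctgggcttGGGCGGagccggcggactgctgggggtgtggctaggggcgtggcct
In all 4 genes the printed window ended at the base before the first base of the WT row, so the deposited rows began at this RefSeq start. In GENCODE, Spred3 spans chr7:29943848-29954860, so its printed window lies inside the annotated gene and an annotated start lies upstream of it. The Spred3 and Gpc3 windows each held 3 GC boxes, which lay on the strand of the gene in Spred3 and on the opposite strand in Gpc3, where they began within 63 bases of the start. The Gpc5 window held 1 GC box 46 bases before the start and 1 TATA box on the opposite strand. No searched motif was found in the Spry2 window, which says only that these letters are not in it. GC content was 62.4% in Spry2, 55.6% in Spred3, 71.6% in Gpc3 and 51.2% in Gpc5, against a median of 52.4% over the 32851 promoters of the table. The table matched 34 of the 44 genes with 41 promoters, and 75.6% of these held a GC box, 17.1% an ETS core and 7.32% a TATA box. Among all promoters the shares were 32.7%, 12.03% and 12.4%. The 41 promoters were also richer in GC, with a median of 64% against 52.4%, and the part of this in the motif shares was not tested. A match is a description of the letters, and no binding was measured here.

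Among the paracrine ligands, Fgf7 and Fgf1 were the most abundant apart from Fgf2, and neither passed the limits. Fgf7, the keratinocyte growth factor, was listed at 14.0 FPKM in WT against 12.2 in KO (ratio 0.872, interval 0.743 to 1.02). Fgf1, which binds every FGF receptor, was at 5.52 FPKM in WT against 7.41 in KO (ratio 1.34, interval 1.11 to 1.62), a difference beyond counting error. The row of an overlapping gene model, Gm5820, held 0.156 and 0.303 FPKM at the Fgf1 locus. Fgf18 was lower in KO, at 3.42 FPKM in WT against 1.999 in KO (ratio 0.585, interval 0.306 to 1.09). The WT row lay at chr11:33017129-33047797 and the KO row was 699 bases shorter, and its estimated 29 and 18 fragments leave that difference within counting error. Fgf10 was at 1.31 FPKM in WT against 0.904 in KO (ratio 0.690, interval 0.431 to 1.09). Fgf22, known as an organizer of synapses, was at 0.660 FPKM in WT against 1.90 in KO, but these values stand for an estimated 2 and 8 fragments, and the interval of the ratio of 2.87 ran from 0.574 to 27.8. Its row (chr10:79217864-79219706) was the same in both tables. The other ligands with a row (Fgf4, Fgf5, Fgf9, Fgf16 and Fgf17 of the paracrine group and Fgf15 and Fgf21 of the endocrine group) stayed at or below 0.219 FPKM in both libraries, with Fgf17 listed in KO only and Fgf4 and Fgf21 in WT only. Fgf3, Fgf6, Fgf8, Fgf20 and Fgf23 were not analysed here. Without Fgf2 the secreted ligands summed to 25.4 FPKM in WT and 25.1 FPKM in KO, with Fgf7 as 55.2% and 48.7% of the sum, Fgf1 as 21.7% and 29.5%, and Fgf18 as 13.5% and 7.96%.

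Fgf2, the ligand used to expand neural stem cells in culture, had the highest ratio of the set, and its value cannot be separated from that of its antisense neighbor. Its row was at 1.80 FPKM in WT against 15.9 in KO, a ratio of 8.78. Nudt6, a Nudix hydrolase gene transcribed from the opposite strand across the end of Fgf2, was at 11.5 FPKM in WT and had no row in KO. In GENCODE on mm9, Fgf2 lies on the plus strand at chr3:37211441-37304299 and Nudt6 on the minus strand at chr3:37303832-37319133, and the annotated genes share 468 bases. The deposited rows shared far more. The WT row of Fgf2 (chr3:37247304-37309228) reached 4929 bases past the annotated end and shared 5767 bases with the WT row of Nudt6 (chr3:37303462-37318512), and the KO row of Fgf2 ended at 37309050. Added together, both genes came to 13.3 FPKM in WT against 15.9 in KO, a ratio of 1.19, which lies within the limits, and Fgf2 took 13.6% of this sum in WT and 100% in KO. The strand of the libraries is not given in the sources used here, so fragments from the shared end cannot be assigned to either gene, and no interval was computed. Of all genes at 1 FPKM or more, 475 were listed in one table only. In 364 of these the row was overlapped, at least in part, by the row of another symbol in the other table, as at Nudt6.

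**Figure D2:**
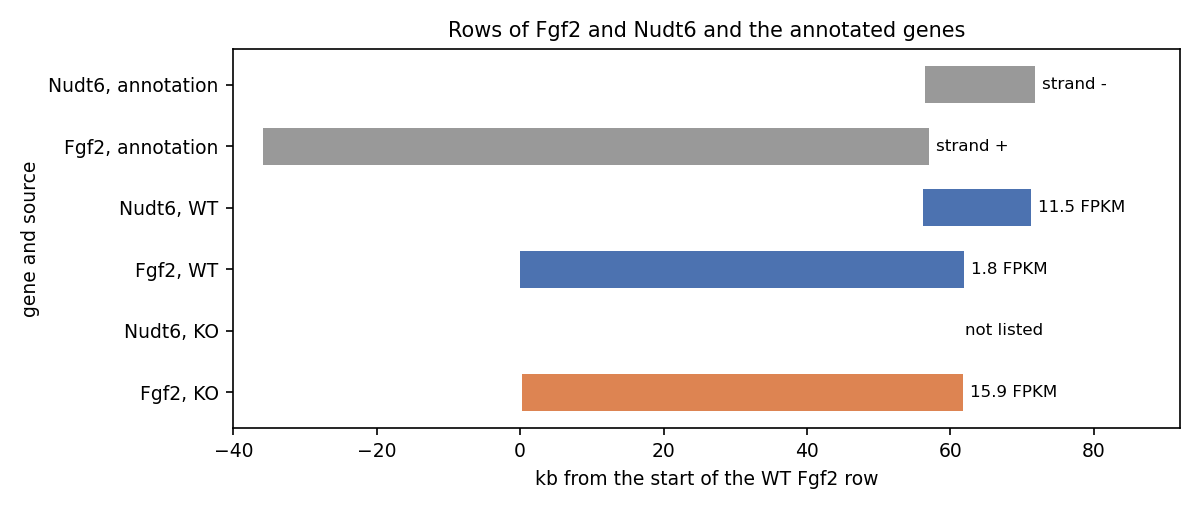
Extent of the Fgf2 and Nudt6 rows in the WT and KO tables and of both annotated genes, in kb from the start of the WT Fgf2 row, with the FPKM of each row and the strand of each annotated gene. The rows of both genes overlap in WT by 5767 bases, Nudt6 has no row in KO, and the Fgf2 rows have nearly the same extent in both tables at 1.80 and 15.9 FPKM.

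The FGF homologous factors stay inside the cell, where they bind voltage-gated sodium channels rather than FGF receptors. All 4 were higher in KO, and as a family they summed to 8.58 FPKM in WT and 12.5 FPKM in KO. Fgf13, the most abundant and X-linked, was at 5.14 FPKM in WT against 7.13 in KO (ratio 1.39, interval 1.08 to 1.78), with a KO row 116519 bases longer than the WT row. Fgf11 was at 1.88 FPKM in WT against 3.19 in KO (ratio 1.69, interval 1.18 to 2.45), with a WT row at chr11:69610179-69615203 and a KO row 1601 bases shorter. Fgf12 was at 0.869 FPKM in WT against 1.41 in KO (ratio 1.62, interval 0.945 to 2.84), an estimated 23 and 39 fragments. Its row (chr16:28160184-28753288) reached 307975 bases past the annotated gene, so the transcript length behind its interval is uncertain. Fgf14 stayed below 1 FPKM, at 0.686 and 0.804 FPKM.

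All receptors at 1 FPKM or more were higher in KO, each by less than 3/2 and each beyond counting error. Fgfr1 was the main receptor, at 63.5 FPKM in WT against 69.3 in KO (ratio 1.09, interval 1.04 to 1.15), and made up 76.5% and 73.7% of the transcripts of the 4 kinase receptors. Fgfr2 was at 10.5 FPKM in WT against 13.1 in KO (ratio 1.25, interval 1.09 to 1.42). Fgfr3, which is enriched in astrocytes, was at 8.12 FPKM in WT against 11.1 in KO (ratio 1.37, interval 1.18 to 1.59). The kinase receptors together summed to 82.9 FPKM and 94.0 FPKM. Fgfrl1 binds FGFs but has no kinase domain. It was at 34.4 FPKM in WT against 49.3 in KO (ratio 1.43, interval 1.31 to 1.57), with the same row bounds in both tables, and was second to Fgfr1 in level. Fgfr4 was at 0.851 FPKM in WT against 0.548 in KO and was not above 1 FPKM in either.

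FGF binding proteins carry FGFs out of the matrix, and the Frs adaptors connect receptors to Ras. Fgfbp3 was at 9.18 FPKM in WT against 11.3 in KO (ratio 1.23, interval 0.980 to 1.55). Fgfbp1 was at 0.408 FPKM in WT against 1.38 in KO (ratio 3.39, interval 1.05 to 14.3), which stands for an estimated 4 and 13 fragments over the same row (chr5:44370097-44373038), so the size of this ratio is poorly fixed. Frs2 was at 10.9 FPKM in WT against 10.2 in KO (ratio 0.937, interval 0.831 to 1.06), and Frs3 at 1.76 and 1.67 FPKM (ratio 0.950). A row of Gm14873 at 0.492 FPKM overlapped Frs3 in KO only, and with it added the ratio of Frs3 was 1.23.

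Sprouty and Spred proteins block the step from the receptor to Raf, and all 6 of them at 1 FPKM or more were higher in KO. Spry2 was the most abundant Sprouty and the one past the limits, at 15.9 FPKM in WT against 24.6 in KO (ratio 1.54, interval 1.33 to 1.80). Its row (chr14:106291164-106296036) was the same in both tables and had an estimated 283 and 455 fragments, and the lower end of the interval lies under 3/2. Spry1 was at 9.91 FPKM in WT against 10.8 in KO (ratio 1.09, interval 0.912 to 1.30), and Spry4 at 7.21 and 8.27 FPKM (ratio 1.15, interval 0.981 to 1.34), so in neither was the difference beyond counting error. Spry3 was at 0.452 and 0.562 FPKM. As a result, Spry2 took 47.5% of the Sprouty transcripts in WT and 55.6% in KO.

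Among the Spred genes, Spred3 had the highest ratio, at 12.3 FPKM in WT against 19.8 in KO (ratio 1.61, interval 1.43 to 1.81). Its KO row (chr7:29943064-29953666) was 599 bases longer than the WT row at the end away from the promoter. Spred1 was at 27.4 FPKM in WT against 30.8 in KO (ratio 1.12, interval 1.05 to 1.20), and Spred2 at 26.6 and 31.9 FPKM (ratio 1.20, interval 1.10 to 1.30). The share of Spred3 in the Spred transcripts was 18.6% in WT and 24.0% in KO, and the family summed to 66.4 FPKM and 82.5 FPKM.

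**Figure D3:**
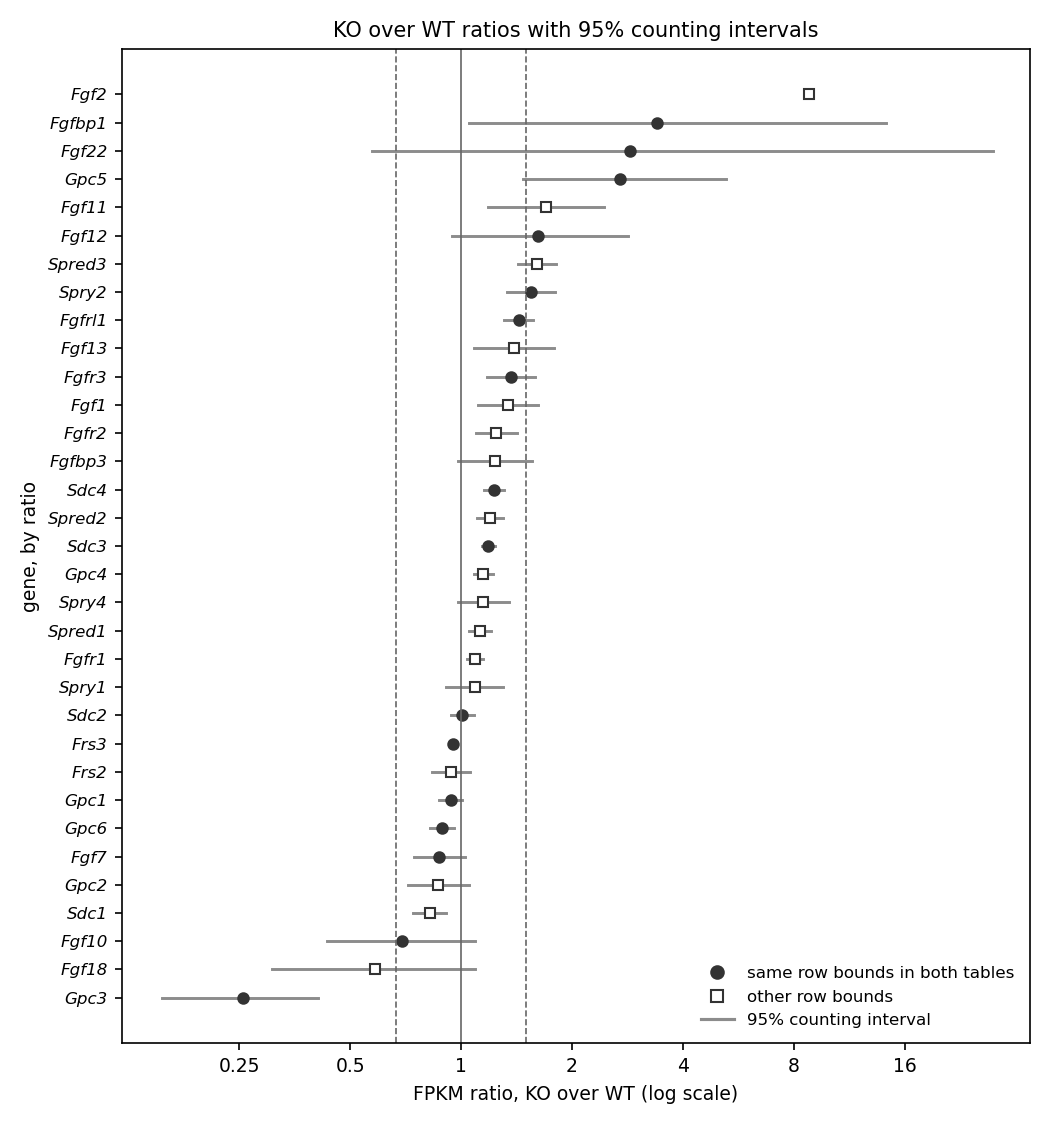
FPKM ratio of KO over WT on a log scale for the 33 genes at 1 FPKM or more that were listed in both tables, with the 95% counting interval where one could be given. Filled circles have the same row bounds in both tables and open squares do not, and dashed lines mark 2/3 and 3/2. Spry2, Spred3, Fgf11, Fgfbp1 and Gpc5 are above 3/2 with intervals clear of 1, but every one of these intervals reaches below 3/2. Gpc3 is alone in having its whole interval below 2/3, and Fgf22, Fgf12 and Fgf18 have intervals that hold 1.

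Syndecans, the transmembrane proteoglycans, were the most abundant family, with 267 FPKM in WT and 301 FPKM in KO, and none passed the limits. Sdc3, the syndecan of neural tissue, was at 98.5 FPKM in WT against 117 in KO (ratio 1.18, interval 1.14 to 1.23). Sdc4, a partner of integrins in focal adhesions, was at 87.6 FPKM in WT against 108 in KO (ratio 1.23, interval 1.15 to 1.30). Sdc2 did not differ beyond counting error, at 51.3 and 51.7 FPKM (ratio 1.01, interval 0.938 to 1.08). Sdc1, better known from epithelia and plasma cells, was the syndecan lower in KO, at 30.0 FPKM in WT against 24.6 in KO (ratio 0.821, interval 0.742 to 0.909).

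Glypicans are held in the membrane by a lipid anchor, and their sum was similar in both libraries, at 171 and 176 FPKM, while 2 low members passed opposite limits. Gpc4, which astrocytes release as a synapse-forming signal, was the main glypican, at 89.5 FPKM in WT against 103 in KO (ratio 1.15, interval 1.08 to 1.22). Gpc6, with the same known activity, was at 23.4 FPKM in WT against 20.8 in KO (ratio 0.887, interval 0.822 to 0.956). Gpc1 was at 48.5 and 45.4 FPKM (ratio 0.936, interval 0.871 to 1.01), and Gpc2 at 4.15 and 3.60 FPKM (ratio 0.868, interval 0.719 to 1.05). Gpc3, which binds and restrains Hedgehog ligands, was at 4.56 FPKM in WT against 1.17 in KO (ratio 0.256, interval 0.154 to 0.409), from an estimated 87 and 23 fragments over the same row (chrX:49625604-49967151) in both tables. Its neighbor on the X chromosome, Gpc4, had a ratio above 1. Gpc5 was at 0.849 FPKM in WT against 2.29 in KO (ratio 2.70, interval 1.47 to 5.23), from an estimated 15 and 43 fragments over the same row (chr14:115491437-116924414). Gpc6 lies next to Gpc5 on chromosome 14 and was lower in KO. The fibroblast, meningeal and mural markers Col1a2 (92.3 and 34.3 FPKM) and Dcn were lower in KO along with Gpc3, and the part of this shift in the Gpc3 value was not tested.

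**Figure D4:**
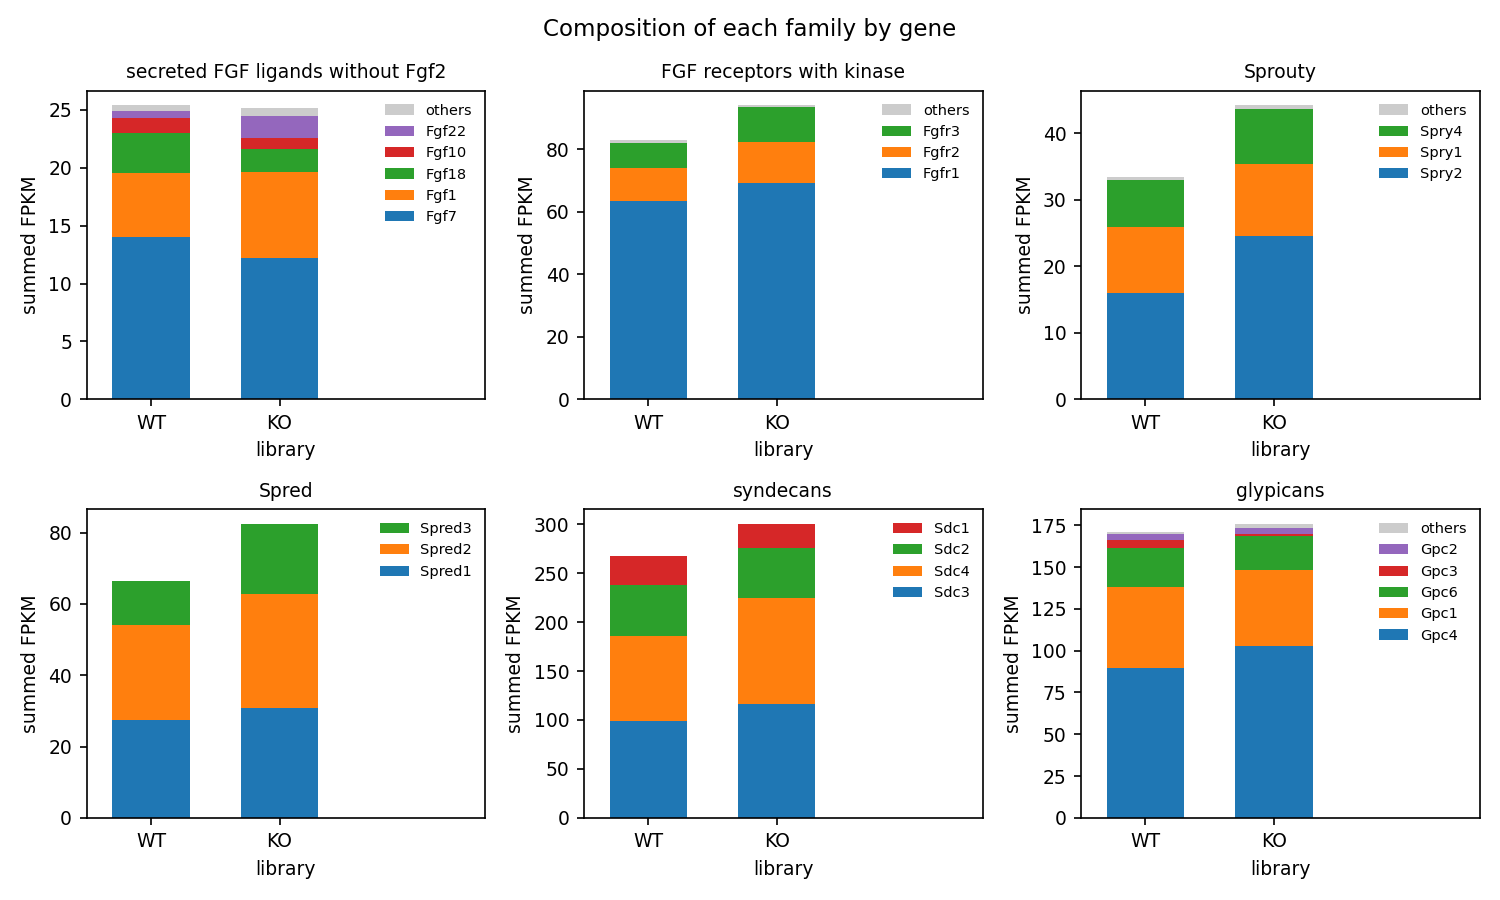
Summed FPKM of 6 families in the WT and KO library, with each bar divided by gene and the axes starting at 0. Genes that add little are drawn together as others, and Fgf2 is left out of the ligands. Fgfr1 makes up most of the kinase receptors, Spry2 widens from 47.5% to 55.6% of the Sprouty bar, and the glypican bars are nearly equal at 171 and 176 FPKM.

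The other genes of the pathway were taken from lists of heparan sulfate enzymes, matrix carriers, receptor partners, signaling proteins and target genes. Of 73 names, 71 had a row and 59 reached 1 FPKM. Of these 59, 2 (3.39%) were above 3/2 and 3 (5.08%) below 2/3, against 9.56% and 8.28% of all genes, and the median log2 ratio was -0.02, close to that of all genes. Genes that build the heparan sulfate chain were all within the limits (0 of 9 past them), with Extl3 the highest by mean FPKM at 53.9 and 64.6 FPKM. Both genes above 3/2 were sulfotransferases of heparan sulfate, out of 9 modification genes. Ndst3, which starts sulfation of the chain, was at 3.07 FPKM in WT against 5.97 in KO (ratio 1.95, interval 1.60 to 2.38). Hs3st1, which adds the sulfate of the antithrombin site, was at 7.27 and 12.1 FPKM (ratio 1.66, interval 1.30 to 2.14). The most abundant modification gene by mean FPKM, Ndst1, was at 29.8 and 38.0 FPKM. Of the genes that edit or cut the chain, the heparanase gene Hpse was at 1.22 FPKM in WT against 0.490 in KO (ratio 0.401, interval 0.199 to 0.766), while the sulfatase gene Sulf2 was at 88.6 and 111 FPKM. Hpse reached 1 FPKM in WT only, the library where it was higher. With 1 FPKM required in both libraries, 2 of 58 pathway genes were below 2/3, and the 8.28% does not hold for that count.

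Outside the chain enzymes, Tgfbr3 and Flrt2 were below 2/3. Tgfbr3, the part-time proteoglycan betaglycan, was at 3.21 FPKM in WT against 1.99 in KO (ratio 0.620, interval 0.486 to 0.790), and Cd44, the highest of the 6 carriers, was at 120 and 152 FPKM. Flrt2, a membrane protein that binds FGF receptors, was at 25.2 FPKM in WT against 13.3 in KO (ratio 0.531, interval 0.488 to 0.576), and Cdh2, the highest of the 5 receptor partners, was at 101 and 102 FPKM. None of the 16 signaling proteins from Grb2 to ERK passed the limits, with the ERK1 gene Mapk3 the highest at 97.6 and 86.4 FPKM.

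Target genes of FGF and ERK signaling stayed within the limits (0 of 11 past them) and did not move one way. Higher in KO were 7 of the 11, against 53.1% of all genes, and the median log2 ratio was 0.32. Dusp6, a phosphatase that switches ERK off, was at 26.0 FPKM in WT against 36.0 in KO (ratio 1.38, interval 1.25 to 1.53). Etv5, an ETS factor induced by FGFs, was at 21.5 and 29.0 FPKM (ratio 1.35, interval 1.22 to 1.48). Etv4 (ratio 1.25), Dusp5 (1.36), Phlda1 (1.28) and Ccnd1 (541 and 727 FPKM, ratio 1.34) were also higher in KO beyond counting error. The immediate early genes Egr1 (16.3 and 12.96 FPKM, ratio 0.794, interval 0.690 to 0.914) and Myc (16.3 and 13.6 FPKM, ratio 0.835, interval 0.710 to 0.982) were lower, as was Fosl1 (ratio 0.750). Etv1 was also lower, at 1.95 and 1.57 FPKM (ratio 0.805, interval 0.565 to 1.14). Dusp4 was at 12.4 and 12.6 FPKM (ratio 1.02, interval 0.863 to 1.19). B3galt6 and Hras were not analysed here.

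**Figure D5:**
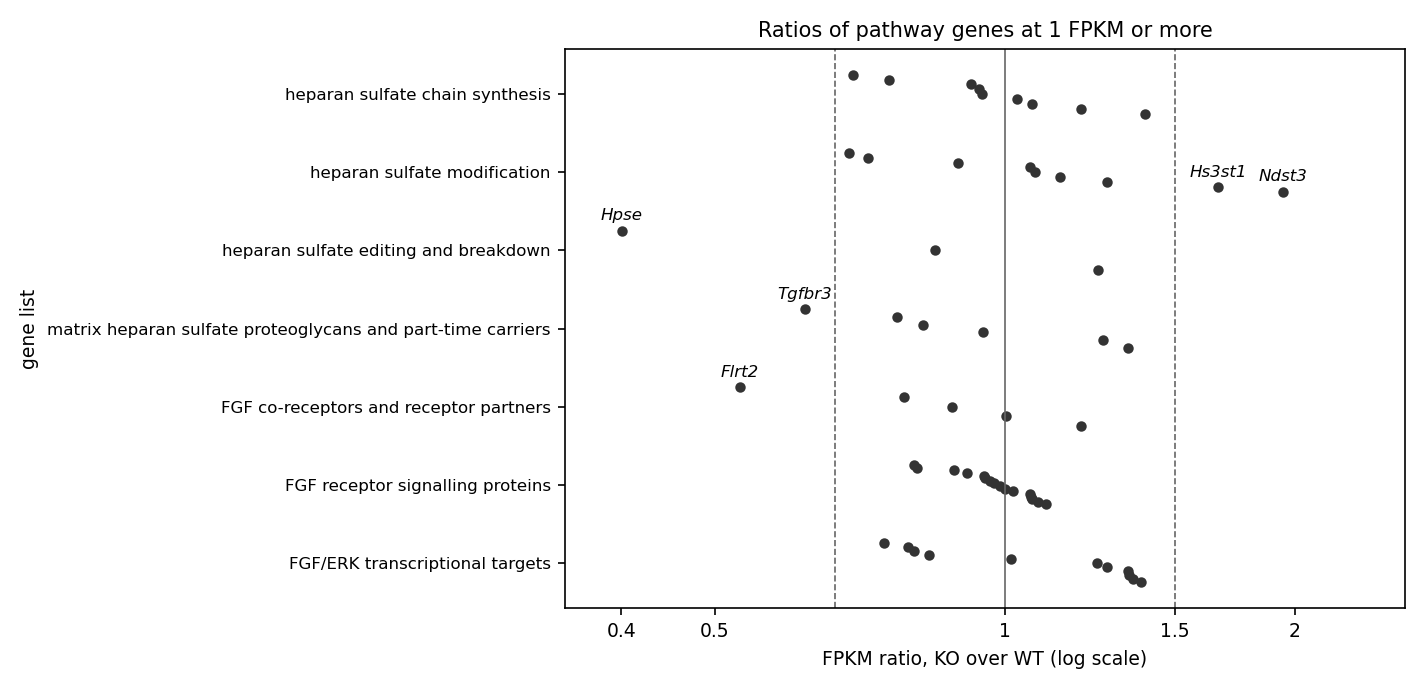
FPKM ratio of KO over WT on a log scale for the 59 pathway genes at 1 FPKM or more, with 1 point per gene, 1 line per list and dashed lines at 2/3 and 3/2. Named genes are past the limits, with Ndst3 and Hs3st1 above 3/2 and Hpse, Tgfbr3 and Flrt2 below 2/3, and all 16 signaling proteins lie between the limits.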

How the data were processed

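Gene expression of cultured DG astrocytes was measured by RNA-seq in 1 WT and 1 β-arr1 KO library, with genotypes taken from the labels. The authors sequenced pairs of reads (2 × 100 bases), mapped them on mm9 by TopHat (version 1.4.0 in the submitters' processing notes) and estimated expression with Cufflinks. The deposited tables give 1 FPKM value per gene, scaled for transcript length and library size, and hold values above 0 only (15417 rows in WT, 15457 in KO). A gene with no row in a table was set to 0 there, and no ratio was given against it. Read counts were not analysed here.

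The tables were joined by symbol, keeping the highest row of a repeated symbol. Every member with a row was named, and values are given in full where 1 FPKM was reached in either library. Of the pathway lists, the highest gene and every gene past 3/2 or 2/3 were named. Immediate early and other target genes named beside these, the gene models overlapping members and the printed promoters were chosen after their values were seen. The members and lists were chosen with earlier results of these data known. Ratios have no pseudocount.

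Depth was read from genes under 0.15 FPKM with a single transcript of over 1000 bases, where FPKM comes in steps of whole fragments (69.6% of 425 genes in WT and 69.2% of 448 in KO lay within 5% of a step). Fragments per gene used the longest GENCODE transcript. No interval was given where rows of other symbols held 10% or more of the value of the gene, a rule set after seeing the data. In 10 of the 31 members with an interval the row reached more than 250 bases past the annotated gene, so the length may be too short there. The limits and the interval formula were tested on simulated fragment counts. The reading of depth from FPKM, the transcript lengths and the overlapping rows were not part of that test. To every start 1 was added, since the deposited starts count from 0. Software versions were Python 3.11.15, numpy 2.4.6, scipy 1.17.1, pandas 2.3.3 and matplotlib 3.10.9. Alternatives were other minimum levels, pseudocounts, limits, scalings, row sums, equal row bounds and the shortest transcript.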

Additional observations from a re-analysis of the deposited data

How the results depend on the processing

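No paired analysis was possible because each genotype has 1 library, and for the same reason no library could be left out. Under the scalings, which multiplied KO by 1.003, 0.987 or 0.982, Sdc2 alone among the members crossed 1 (from 1.01 to 0.990 at the lowest). The shares of 9.56% and 8.28% of all genes hold for the main setting only, so the counts under other settings cannot be set against them. With a minimum of 0.1 FPKM, 11 of 42 members were above 3/2 and 5 below 2/3, and 4 of 68 pathway genes were above and 5 below. With a minimum of 5 FPKM, 3 of 24 members were above and 1 below, and 1 of 53 pathway genes was below. With 1 FPKM required in both libraries, 4 of 28 members were above. A pseudocount of 1 left 1 pathway gene below, and took Fgf11 (1.45), Fgf12 (1.29) and Fgf18 (0.679) within the limits. Limits of 2 and 1/2 left 4 of 34 members above, and 0 of 59 pathway genes above and 1 below. With genes of the same row bounds, 5 of 16 members were above and 1 below, 0 of 28 pathway genes were above, and the interval left out 1 in 9 of 15 members. With the shortest annotated transcript the interval left out 1 in 10 of 30 members. Summing overlapping rows took Fgf2 from 8.78 to 1.19 and left 7 of 34 members above 3/2 and 2 below 2/3. Nudt6 has no ratio to vary because it had no KO row. The depth limits Fgf22, Fgfbp1, Fgf12 and Fgf18, whose ratios rest on at most 39 fragments in either library.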
